A study of Mus musculus with 6 samples.

Results

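Imprinted genes are transcribed mainly from the copy inherited from 1 parent. The genes described here are 40 imprinted mouse genes that lie outside the Snrpn region, and their RNA was followed in R1 mouse embryonic stem cells carrying a short hairpin RNA (shRNA) against KIAA1718 or against luciferase. They were chosen by symbol from a list. Each gene was read through the probe set, assigned to that gene alone, with the highest mean over the 6 arrays. Of the 40 genes, 35 had such a probe set, out of 18193 genes with one on the array, and 29 passed the filter on low signal, out of 12741 genes tested. Of these 29, 15 were classed as paternally expressed and 12 as maternally expressed. Grb10 and Gnas were kept apart, because their expressed copy depends on the tissue and the promoter. The classes were assigned per gene, and whether each gene is imprinted in these cells was not measured.

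Total RNA was measured on Affymetrix mouse expression arrays, 3 from KIAA1718 shRNA cells and 3 from Luc shRNA cells. Both groups had been infected with a lentivirus that carried the shRNA and sorted for green fluorescence, so the controls share the infection and the sort, and each group rests on 1 shRNA (shRNA1 for KIAA1718). KIAA1718 is the protein of Kdm7a, a histone demethylase. The labels do not state whether the replicates are separate cultures, and the p-values below therefore cover the spread among these 6 samples, part of which may be technical. The targeted gene Kdm7a had signals of 40.9, 23.8 and 34.9 on the KIAA1718 shRNA arrays, against 33.3, 31.2 and 44.9 on the Luc shRNA arrays. The groups overlapped and the log2 difference was -0.20 ± 0.15 (SE, limma adjusted p = 0.534), so depletion of the target was not detected on these arrays.

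As background, the copy to be silenced at an imprinted gene is marked in the germ line by DNA methylation of a control region, and the mark is kept through the demethylation of the early embryo. The zinc finger protein ZFP57, with its partner TRIM28, binds the methylated hexamer TGCCGC at many such control regions in mouse embryonic stem cells and recruits enzymes that methylate histones and DNA. Paternally expressed genes often promote growth of the embryo and placenta and maternally expressed genes often restrain it. Imprinted genes lie in clusters, in which a long noncoding RNA from 1 parental copy can silence its neighbours on that copy. The arrays measured the RNA of both parental copies together, so none of the values below says which copy it came from. In bulk samples, fewer cells of a type and less RNA per cell cannot be told apart.

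The promoters of 4 of the 6 paternally expressed genes called higher are shown: the 3 with a window that holds the hexamer described above, and Peg3 as 1 of the 3 without such a window. Each window runs from 250 bases before to 50 bases after the RefSeq start on GRCm38.p6, 5′ to 3′ on the strand of the gene, and capitals mark the hexamer TGCCGC or its reverse complement GCGGCA. The Mest window is chr6:30737800-30738099 on the plus strand, that of Nnat is chr2:157559828-157560127 on the plus strand, that of Zdbf2 is chr1:63200108-63200407 on the plus strand, and that of Peg3 is chr7:6730370-6730669 on the minus strand.
Mest: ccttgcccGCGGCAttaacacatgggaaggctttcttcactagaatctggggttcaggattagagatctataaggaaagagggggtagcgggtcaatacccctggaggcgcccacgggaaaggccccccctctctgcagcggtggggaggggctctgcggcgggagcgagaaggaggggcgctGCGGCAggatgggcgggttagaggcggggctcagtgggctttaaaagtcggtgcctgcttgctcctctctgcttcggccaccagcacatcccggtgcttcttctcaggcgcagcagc
Nnat: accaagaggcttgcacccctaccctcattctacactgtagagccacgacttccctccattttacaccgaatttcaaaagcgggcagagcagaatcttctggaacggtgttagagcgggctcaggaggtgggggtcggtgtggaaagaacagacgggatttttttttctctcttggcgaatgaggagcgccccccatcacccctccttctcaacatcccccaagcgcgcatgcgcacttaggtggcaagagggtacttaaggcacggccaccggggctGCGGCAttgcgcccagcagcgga
Zdbf2: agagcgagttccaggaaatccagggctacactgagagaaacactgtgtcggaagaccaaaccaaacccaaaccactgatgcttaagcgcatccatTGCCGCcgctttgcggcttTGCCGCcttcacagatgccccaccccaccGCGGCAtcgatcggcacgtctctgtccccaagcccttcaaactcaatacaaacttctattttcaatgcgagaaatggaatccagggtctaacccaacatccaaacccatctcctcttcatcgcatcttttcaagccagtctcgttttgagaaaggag
Peg3: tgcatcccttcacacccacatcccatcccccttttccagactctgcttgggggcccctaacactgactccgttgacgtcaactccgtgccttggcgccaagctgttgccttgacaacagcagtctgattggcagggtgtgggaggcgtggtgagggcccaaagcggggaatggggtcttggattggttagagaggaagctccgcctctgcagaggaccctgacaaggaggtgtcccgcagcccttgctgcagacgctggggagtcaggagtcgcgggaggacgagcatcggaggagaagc

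The printed windows of Mest, Nnat and Zdbf2 hold 2, 1 and 3 copies of the hexamer, and that of Peg3 holds none. Neither do the 2 windows of Sfmbt2 and the 3 of Slc38a4, which are not printed. Over the 6 genes called higher, 4 of 12 windows (33.3%) hold it, 2 of them overlapping windows of Mest. Mest and Zdbf2 each have another annotated start whose window had no copy, that of Mest at chr6:30733256-30733555. Which start the probe set reads is not known here for either gene. The Peg3 window overlaps that of the divergent gene Usp29 by 263 bases. RefSeq promoter windows were matched for 32 of the 40 genes. On both strands, the hexamer occurred in 12 of their 49 windows (24.5%), against 3813 of all 32851 windows (11.6%), some of which overlap. The median number of CpG dinucleotides was 16 in the windows of the imprinted genes and 7 over all windows. Windows with the hexamer were 7 of 25 (28.0%) for paternally expressed and 4 of 18 (22.2%) for maternally expressed genes. A match describes these letters only. It says nothing of binding by ZFP57, and a window without a match does not cover a control region that lies elsewhere.

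Some of the genes are also hosts of miRNAs. The mature sequences below are those of Mest, whose RNA rose, and a selection of those inside Mirg, whose RNA fell. They are RefSeq sequences on GRCm38.p6, with the seed (bases 2 to 8) in capitals.
miR-335-5p: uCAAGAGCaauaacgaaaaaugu
miR-335-3p: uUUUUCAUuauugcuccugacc
miR-453: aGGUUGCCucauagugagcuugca
miR-496a-5p: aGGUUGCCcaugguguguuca
miR-154-3p: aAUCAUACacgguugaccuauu
miR-377-3p: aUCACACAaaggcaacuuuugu
miR-410-3p: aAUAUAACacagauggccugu

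Mest, on chromosome 6, holds 1 annotated hairpin with 2 mature forms, miR-335-5p and miR-335-3p. Mirg, on chromosome 12, holds 10 hairpins with 19 mature miRNAs and 18 different seeds, since miR-453 and miR-496a-5p share the seed GGUUGCC. Mature miRNAs were not analysed here, and the level of a host RNA is not the level of its miRNAs.

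Among the 29 genes tested, 6 paternally expressed genes rose in KIAA1718 shRNA cells, namely Sfmbt2, Mest, Nnat, Zdbf2, Peg3 and Slc38a4, and 1 maternally expressed gene, Mirg, fell (limma adjusted p under 0.05 over all tested probe sets). Over all 12741 genes, 4.8% were called in either direction, 2.64% higher and 2.17% lower. The groups did not overlap and KIAA1718 shRNA was higher for 10 of the 29, against 14.4% of all genes, and lower for 1, against 13.4%. The median log2 difference over the 29 was 0.20 and 20 lay above 0, beside a median of 8.1e-05 and 50.01% above 0 over all genes. Because the genes were chosen with earlier results known, the set as a whole was not tested. Differences below are log2(KIAA1718 shRNA/Luc shRNA) on the quantile-normalized log2(signal + 16) scale, with SE, and signals are the deposited intensities.

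**Figure D1:**
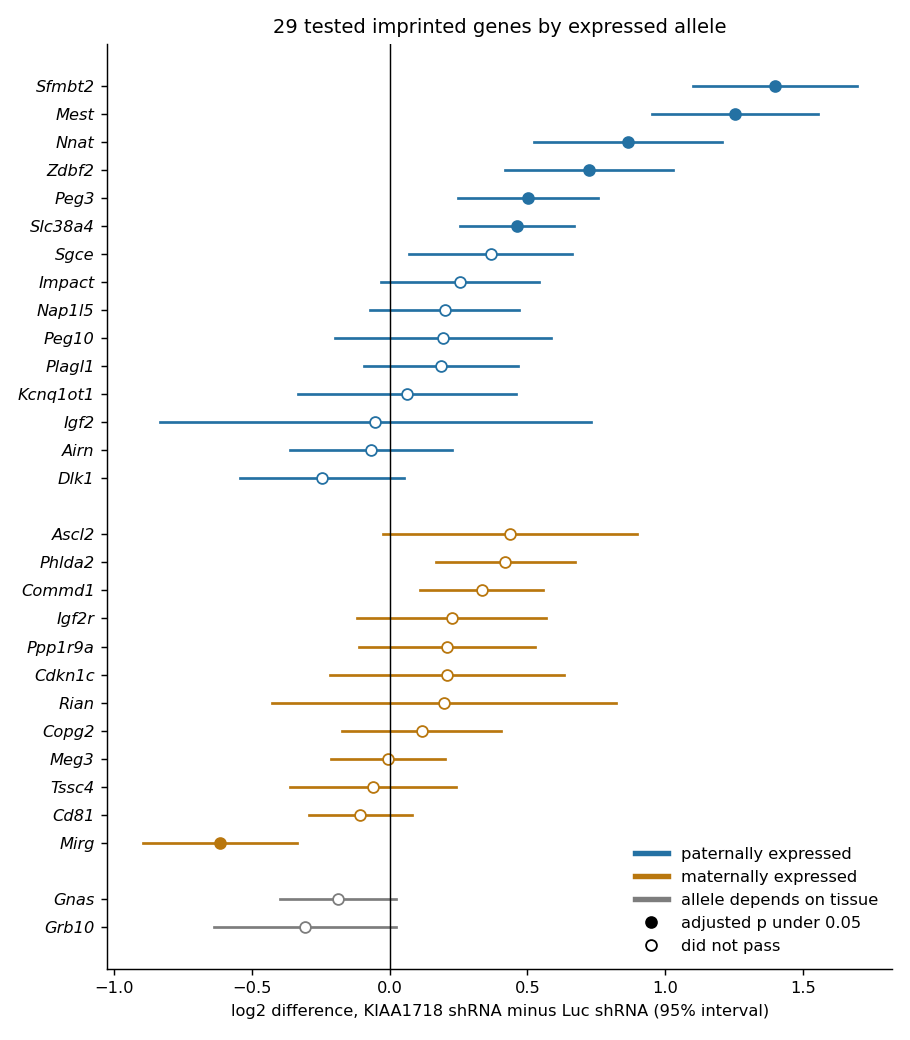
Log2 difference between KIAA1718 shRNA and Luc shRNA cells for the 29 tested imprinted genes, with 95% confidence intervals, by parental class. The 6 genes called higher are all paternally expressed, and Mirg is the only gene called lower.

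Sfmbt2 encodes a polycomb-related protein and is paternally expressed in extraembryonic tissue. Its signals were 138, 113 and 140.1 on the KIAA1718 shRNA arrays, against 38.7, 28.6 and 38.9 on the Luc shRNA arrays. Every KIAA1718 shRNA array lay far above every Luc shRNA array. The difference was 1.40 ± 0.14 (95% interval 1.10 to 1.70, adjusted p = 0.000427). A second, dim Sfmbt2 probe set read 12.5, 13.5 and 11.6 in KIAA1718 shRNA cells and 2.47, 3.75 and 8.90 in Luc shRNA cells, and its difference of 0.40 ± 0.14 did not pass (adjusted p = 0.134).

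Mest, also called Peg1, encodes a protein of the alpha/beta hydrolase fold, and its paternal transcript begins in a CpG island that is methylated on the maternal copy. Mest signals were 835, 696 and 827 in KIAA1718 shRNA cells, against 344, 216 and 328 in Luc shRNA cells. The groups were well apart, with replicate 2 the lowest in each. The difference was 1.25 ± 0.14 (0.95 to 1.56, adjusted p = 0.000943), a 2.39-fold change on the scale used. Copg2, its neighbour on the opposite strand and maternally expressed, encodes a coatomer subunit and differed by 0.12 ± 0.13 (adjusted p = 0.7).

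Nnat encodes neuronatin, a small membrane proteolipid, and lies within an intron of Blcap. Nnat signals were 86.6, 61.2 and 98.9 in KIAA1718 shRNA cells, against 36.1, 30.6 and 33.8 in Luc shRNA cells. All KIAA1718 shRNA arrays were higher, and they were also more spread out than the Luc shRNA arrays. The difference was 0.86 ± 0.16 (0.52 to 1.21, adjusted p = 0.0131), and the call was lost without KIAA1718 shRNA replicate 3 (0.79, adjusted p = 0.0648) or Luc shRNA replicate 3 (0.78, adjusted p = 0.0775). Blcap itself, the host gene, differed by -0.39 (adjusted p = 0.263).

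Zdbf2 encodes a zinc finger protein that is expressed from the paternal copy. It had signals of 212, 204 and 296 in KIAA1718 shRNA cells, against 113, 128 and 127 in Luc shRNA cells. KIAA1718 shRNA replicate 3 was the highest, and the groups did not overlap. The difference was 0.72 ± 0.14 (0.42 to 1.03, adjusted p = 0.0181). The call was lost without KIAA1718 shRNA replicate 3 (0.61, adjusted p = 0.0853) and without Luc shRNA replicate 3 (0.63, adjusted p = 0.097).

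Peg3 encodes a large zinc finger protein, and its promoter region is the control region of its cluster on chromosome 7. Peg3 signals were 247, 224 and 281 in KIAA1718 shRNA cells, against 164, 134 and 168 in Luc shRNA cells. Each KIAA1718 shRNA array was above each Luc shRNA array. The difference was 0.50 ± 0.12 (0.25 to 0.75, adjusted p = 0.0392). The call was lost when replicate 1 or 3 of KIAA1718 shRNA or replicate 2 or 3 of Luc shRNA was left out, with the difference between 0.44 and 0.57 without any 1 array. Its other 2 tested probe sets gave 0.70 ± 0.23 (adjusted p = 0.121, or 0.0175 with the replicate number as a block) and 0.42 ± 0.16 (adjusted p = 0.173). The neighbours Usp29, a ubiquitin protease gene, and Zim1, a zinc finger gene, were below the filter.

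Slc38a4, on chromosome 15, encodes an amino acid transporter of the placenta and liver. Its signals were 557, 614 and 579.9 in KIAA1718 shRNA cells, against 394, 312 and 446 in Luc shRNA cells. The groups did not overlap, and the Luc shRNA arrays were the more spread. The difference was 0.46 ± 0.09 (0.26 to 0.67, adjusted p = 0.0225), and leaving out any array other than Luc shRNA replicate 1 ended the call (adjusted p = 0.0584 to 0.0903). The 2 tested probe sets of Slc38a4 disagreed in size, since the other read 393, 345 and 394 in KIAA1718 shRNA cells against 323, 249.8 and 411 in Luc shRNA cells, a difference of 0.08 ± 0.11 (adjusted p = 0.763).

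**Figure D2:**
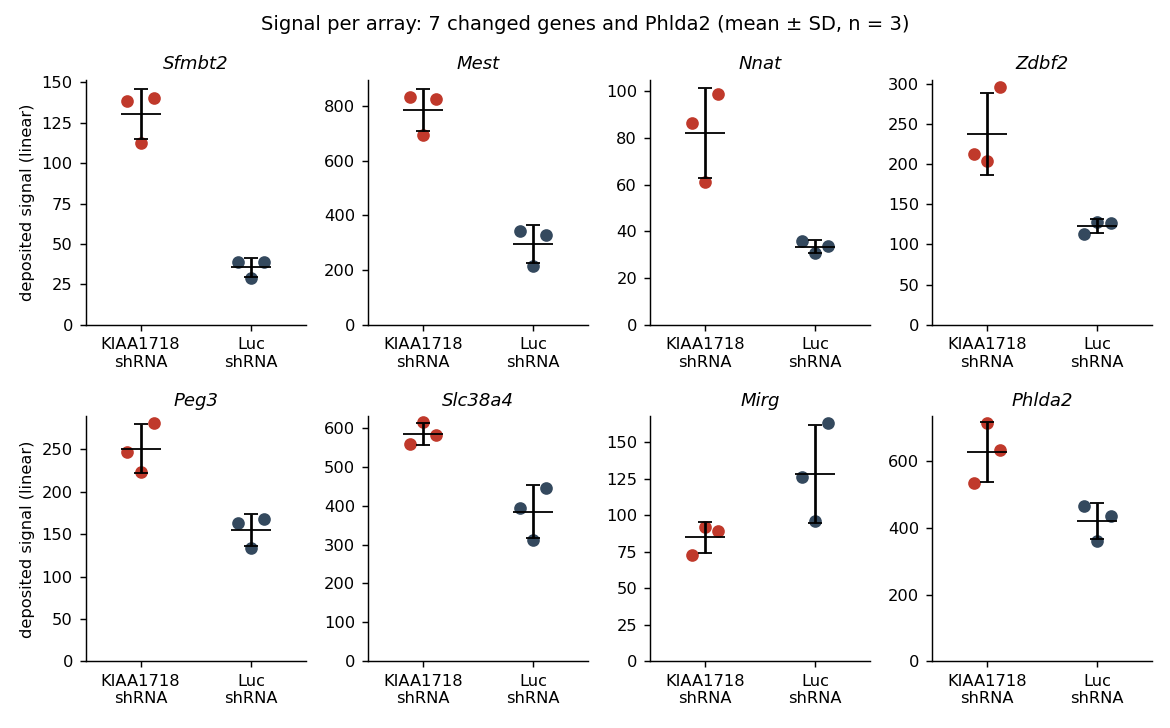
Deposited signal (arbitrary units, linear axis from 0) on each array for the 7 imprinted genes called and for Phlda2, which passed with the block. The mean ± SD of 3 arrays is drawn beside the points, with KIAA1718 shRNA left of Luc shRNA in each panel. The genes shown were picked by their results. The KIAA1718 shRNA arrays lie above the Luc shRNA arrays for 7 of the 8 genes, and Mirg is the gene whose KIAA1718 shRNA arrays lie below the Luc shRNA arrays.

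Mirg is a maternally expressed noncoding RNA of the Dlk1-Dio3 cluster on chromosome 12. Its signals were 73.1, 92.3 and 89.4 in KIAA1718 shRNA cells, against 126, 96.1 and 163 in Luc shRNA cells. All KIAA1718 shRNA arrays were lower, with Luc shRNA replicate 2 close above them. Mirg fell by 0.62 ± 0.13 (-0.90 to -0.34, adjusted p = 0.0241). The call was lost when replicate 1 or 3 of either group was left out, with the difference between -0.71 and -0.56. Its other tested probe set gave -0.46 ± 0.13 (adjusted p = 0.0832, or 0.0395 with the block).

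The other RNAs of this cluster did not pass. Meg3, the noncoding RNA at the start of the maternally expressed unit, had signals of 929, 1135 and 1038 in KIAA1718 shRNA cells and 978, 944 and 958 in Luc shRNA cells. Its difference was -0.01 ± 0.09 (-0.21 to 0.20, adjusted p = 0.986). The 11 tested probe sets of Meg3 ran between -0.46 and 0.40, with 3 above 0 and 8 below, and none was called (lowest adjusted p 0.102). Rian, a noncoding host of small nucleolar RNAs, had signals of 361, 539 and 733 in KIAA1718 shRNA cells and 220.2, 486 and 644 in Luc shRNA cells. In both groups replicate 1 was the lowest and replicate 3 the highest, and the difference was 0.20 ± 0.29 (adjusted p = 0.77). Dlk1, a paternally expressed Notch ligand-like growth regulator, differed by -0.25 ± 0.14 (adjusted p = 0.365). The difference of Mirg was not tested against those of Meg3 and Rian.

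**Figure D3:**
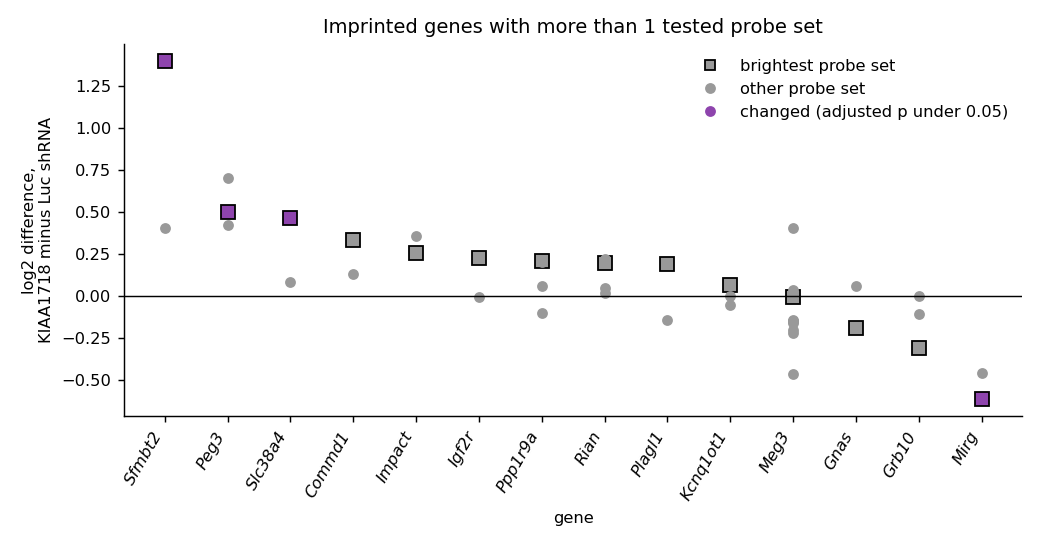
Log2 difference between KIAA1718 shRNA and Luc shRNA cells for every tested probe set of the imprinted genes that have more than 1. The 3 Peg3 probe sets lie above 0 and the 2 Mirg probe sets below 0, while the 11 Meg3 probe sets lie on both sides.

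In the growth factor cluster of chromosome 7, Igf2, the paternally expressed insulin-like growth factor, had signals of 92.7, 134 and 159 in KIAA1718 shRNA cells and 42.9, 165 and 211 in Luc shRNA cells. Luc shRNA replicate 1 was the lowest of all and Luc shRNA replicate 3 the highest, and the difference was -0.05 ± 0.36 (-0.84 to 0.73, adjusted p = 0.96). That interval is wide enough to hold a rise or a fall of the size seen for Zdbf2. H19, the maternally expressed noncoding RNA of the cluster, had no probe set of its own. A probe set assigned to both H19 and Mir675, a miRNA gene inside H19, had signals of 375, 209.6 and 345 in KIAA1718 shRNA cells, against 118, 182 and 216 in Luc shRNA cells. Its groups overlapped, and its difference of 0.65 ± 0.22 did not pass (adjusted p = 0.125). Igf2r, the maternally expressed receptor that clears Igf2, differed by 0.23 ± 0.16 (adjusted p = 0.486), and Airn, the antisense noncoding RNA that silences it on the paternal copy, by -0.07 ± 0.13 (adjusted p = 0.835). The array annotation does not settle whether signal from a shared stretch belongs to Airn or Igf2r, and a probe set assigned to both gave -0.35 (adjusted p = 0.217).

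The neighbouring Kcnq1ot1 cluster holds a paternally expressed noncoding RNA and maternally expressed protein genes. Phlda2, which restrains placental growth, had signals of 533, 712 and 631 in KIAA1718 shRNA cells, against 466, 361 and 435 in Luc shRNA cells. The groups did not overlap, and the difference of 0.42 ± 0.12 (0.17 to 0.67) did not pass (adjusted p = 0.0711). It passed without Luc shRNA replicate 1 (0.52, adjusted p = 0.0443) and with the replicate number as a block (adjusted p = 0.0419). It also passed in the fit to the mean of a gene's probe sets (adjusted p = 0.0426). Phlda2 has only 1 probe set, so its values were the same there, and that fit was adjusted over 12741 genes instead of all tested probe sets. The block made 7 imprinted genes higher and 1 lower in that fit, where 4.06% and 3.83% of all genes were. Cdkn1c, an inhibitor of cyclin-dependent kinases, differed by 0.21 ± 0.19 (adjusted p = 0.622). Ascl2, a transcription factor gene of the trophoblast, had signals of 22.4, 25.0 and 10.8 in KIAA1718 shRNA cells and 12.01, 2.57 and 13.1 in Luc shRNA cells, overlapping, with a difference of 0.44 ± 0.21 (adjusted p = 0.294). The tetraspanin gene Cd81 differed by -0.11 ± 0.09 (adjusted p = 0.554), Tssc4 by -0.06 ± 0.14 (adjusted p = 0.865) and Kcnq1ot1 by 0.06 ± 0.18 (adjusted p = 0.896). The potassium channel gene Kcnq1 and the transporter gene Slc22a18 were below the filter.

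In the Peg10 cluster of chromosome 6, Sgce, the paternally expressed gene of epsilon-sarcoglycan, had signals of 34.3, 33.9 and 41.8 in KIAA1718 shRNA cells, against 16.04, 24.4 and 26.0 in Luc shRNA cells. The groups did not overlap, but the difference of 0.37 ± 0.14 did not pass (adjusted p = 0.17). Peg10, derived from a retrotransposon and needed for the placenta, differed by 0.19 ± 0.18 (adjusted p = 0.62), and the maternally expressed neurabin gene Ppp1r9a by 0.21 ± 0.15 (adjusted p = 0.491). Nap1l5, a retrogene on the same chromosome, was dim, beside array medians of 9.58 to 13.3. Its signals were 15.2, 15.6 and 17.5 in KIAA1718 shRNA cells, against 10.6, 8.04 and 12.8 in Luc shRNA cells. The groups did not overlap, but the difference of 0.20 ± 0.12 did not pass (adjusted p = 0.426). The maternally expressed Asb4 was below the filter.

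Of the remaining paternally expressed genes, Impact, a regulator of translation, differed by 0.26 ± 0.13 (adjusted p = 0.325) and Plagl1, a zinc finger transcription factor gene, by 0.19 ± 0.13 (adjusted p = 0.476). Commd1, a maternally expressed gene of copper handling, had signals of 418, 469 and 482 in KIAA1718 shRNA cells, against 335, 254 and 396 in Luc shRNA cells. These did not overlap, but the difference of 0.33 ± 0.10 did not pass (adjusted p = 0.0985). Its other tested probe set gave 0.13 ± 0.13 (adjusted p = 0.642), with overlapping groups. Grb10, a growth-restraining adaptor of insulin signalling, differed by -0.31 ± 0.15 (adjusted p = 0.299), with all 3 of its tested probe sets below 0. Gnas, the gene of a stimulatory G protein subunit, differed by -0.19 ± 0.10 (adjusted p = 0.32).

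Zim1, Usp29, Kcnq1, Slc22a18, Rasgrf1 and Asb4 had probe sets below the filter and were not tested. Their signals ran from 0.287 to 15.99 in KIAA1718 shRNA cells and from 0.758 to 8.92 in Luc shRNA cells. Rtl1, Dio3, Zrsr1, Peg13 and H19 had no probe set assigned to them alone in the annotation used here, and were not analysed.

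Set side by side, 6 of 15 paternally expressed genes and 0 of 12 maternally expressed genes were called higher by limma, beside 2.64% of all genes. In that direction 7 and 2 had an unadjusted p under 0.05, as did 11.2% of all genes. Of the same genes, 0 of 15 and 1 of 12 were called lower, beside 2.17% of all genes. At an unadjusted p under 0.05, 0 and 1 were lower, beside 10.8% of all genes. A maternally expressed gene was called higher under 4 alternatives, Phlda2 with the block, with the mean of probe sets and without Luc shRNA replicate 1, and Rian with a fibroblast covariate described below. The median difference was 0.26 over the paternally expressed genes, of which 12 lay above 0, and 0.20 over the maternally expressed genes, of which 8 lay above 0. Counting Grb10 and Gnas as maternally expressed gave a median of 0.16 for that class. The groups did not overlap, with KIAA1718 shRNA higher, for 8 of 15 paternally and 2 of 12 maternally expressed genes, beside 14.4% of all genes. Without any 1 array the paternal median ran from 0.21 to 0.40 and the maternal median from 0.12 to 0.16. Without Luc shRNA replicate 2 they were 0.40 and 0.15, and with the mean of a gene's probe sets 0.27 and 0.11. The difference between the classes was not tested.

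By array, the median deviation of the paternally expressed genes from their mean over the 6 arrays was 0.20, 0.12 and 0.23 (log2) in KIAA1718 shRNA cells, against -0.23, -0.04 and -0.22 in Luc shRNA cells. For the maternally expressed genes it was -0.0035, 0.11 and 0.08 in KIAA1718 shRNA cells and -0.03, -0.0059 and -0.09 in Luc shRNA cells. In both classes every KIAA1718 shRNA value lay above every Luc shRNA value, by a margin of under 0.01 in the maternal class. The widths of the 2 separations were not compared by a test.

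**Figure D4:**
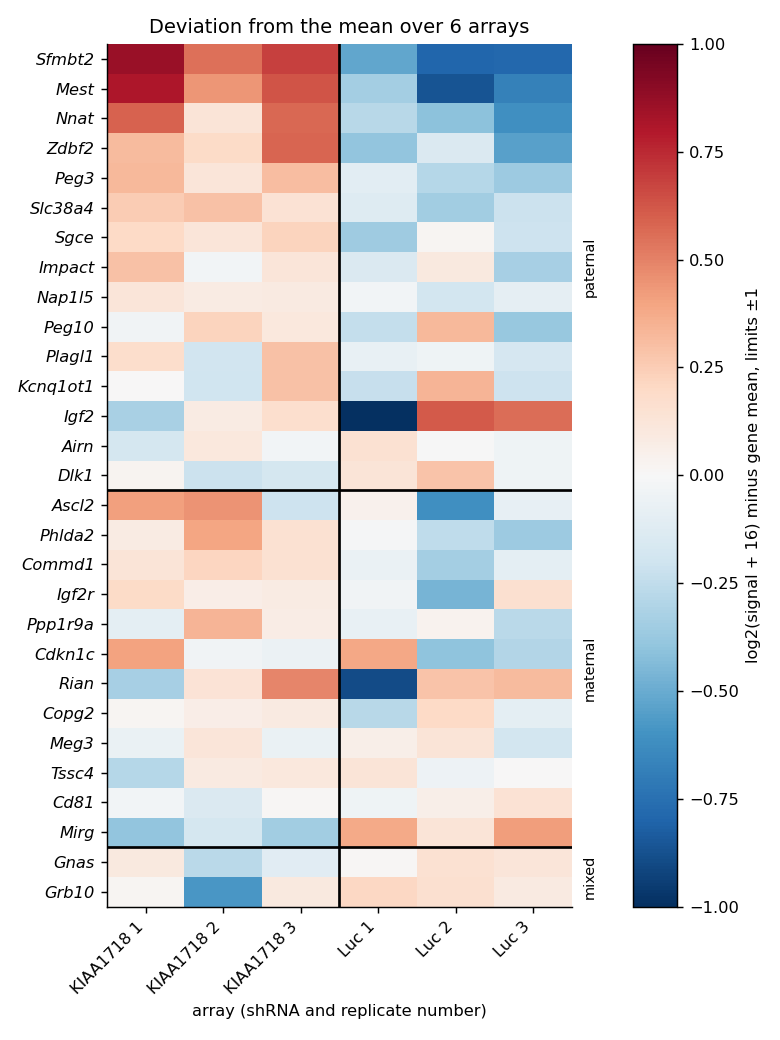
Deviation of each tested imprinted gene from its own mean over the 6 arrays (log2), by parental class, with colours limited at ±1 and KIAA1718 shRNA arrays left of Luc shRNA arrays. The paternally expressed genes called higher are above their mean on the KIAA1718 shRNA arrays, and below it on the Luc shRNA arrays.

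A list of 25 genes, most of them linked to setting, keeping or removing DNA methylation and chromatin marks, had 23 tested. Of these, 2 were higher and 1 was lower, beside 2.64% and 2.17% of all genes. Dnmt3b, a methyltransferase that sets new DNA methylation, had signals of 1376, 1525 and 1334 in KIAA1718 shRNA cells, against 834, 651 and 749 in Luc shRNA cells, and rose by 0.81 ± 0.10 (adjusted p = 0.00207). Dppa3, which protects methylation in the early embryo, had 137, 119 and 118 in KIAA1718 shRNA cells, against 75.1, 37.3 and 48.5 in Luc shRNA cells, and rose by 0.93 ± 0.20 (adjusted p = 0.0263), a call lost when any array other than Luc shRNA replicate 1 was left out. In both genes the groups were apart on every array. Ehmt2, a histone H3 lysine 9 methyltransferase, had 288, 287 and 293 in KIAA1718 shRNA cells, against 411, 377 and 470.0 in Luc shRNA cells, and fell by 0.65 ± 0.09 (adjusted p = 0.00392). The median of the 23 was -0.12, with 8 above 0. Zfp57 differed by -0.25 (adjusted p = 0.437), and Trim28 had signals of 2952, 2636 and 2954 in KIAA1718 shRNA cells and 2568, 2810.1 and 2723 in Luc shRNA cells (adjusted p = 0.99). Dnmt3l, a cofactor of the new methylation enzymes, differed by 0.52 and passed only with the block (adjusted p = 0.122 without it, 0.0133 with it).

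Markers of other cell types also varied between arrays. The mean log2 level of 33 fibroblast markers was 7.11, 7.41 and 7.48 on the KIAA1718 shRNA arrays and 7.19, 7.99 and 7.95 on the Luc shRNA arrays, and their summed signal ran from 8479 to 12624 in KIAA1718 shRNA cells and from 8153 to 16314 in Luc shRNA cells. None of the 33 was called by limma in either direction, and 30 lay below 0. An unadjusted p under 0.05 was seen for 9, all of them lower, where 10.8% of all genes were lower at that level. With the replicate number as a block 13 of the 33 were called lower, as were 13 without Luc shRNA replicate 1. Of all genes, 3.83% were called lower with the block and 2.09% without that array. Igf2 and Rian were lowest on replicate 1 of each group, where the fibroblast mean was also lowest. Igf2 was 6.79, 7.20 and 7.28 (log2) in KIAA1718 shRNA cells and 6.02, 7.73 and 7.67 in Luc shRNA cells. Of 10 embryonic stem cell markers, 3 were called lower, beside 2.17% of all genes. The 3 were Esrrb (-1.16, adjusted p = 0.00405), Klf4 (-0.91, adjusted p = 0.00124) and Utf1 (-0.44, adjusted p = 0.0244). Esrrb and Klf4 were called under all 16 alternatives, Utf1 under 6. Not called were Pou5f1 (-0.15), Sox2 (-0.08), Nanog (-0.42), Zfp42 (-0.22), Dppa4 (-0.25), Dppa5a (-0.07) and Tdgf1 (0.12). Tdgf1 was the only 1 of the 10 above 0. With the block 4 were called lower, beside 3.83% of all genes, Nanog being added (-0.42, adjusted p = 0.159 without the block, 0.049 with it). The summed signal of the 10 was 12089 to 13322 in KIAA1718 shRNA cells and 12544 to 15279 in Luc shRNA cells. Of 10 tested primitive endoderm markers, 4 were called lower, beside 2.17% of all genes. The summed signal of all 12 with a probe set was 527 to 647 in KIAA1718 shRNA cells and 614 to 934 in Luc shRNA cells. Trophoblast is a tissue where Sfmbt2, Phlda2 and Ascl2 are active, and of its 12 markers 5 passed the filter, none was called and none had an unadjusted p under 0.05. The summed signal of the 9 with a probe set ran from 324 to 357 in KIAA1718 shRNA cells and from 245 to 329 in Luc shRNA cells. The mean log2 level of 7 neural markers was 6.55, 6.49 and 6.55 on the KIAA1718 shRNA arrays, against 6.31, 6.38 and 6.32 on the Luc shRNA arrays, without overlap. Of these 7, 1 was called higher, beside 2.64% of all genes, namely Neurod1, a neuronal transcription factor gene (0.68 ± 0.12, adjusted p = 0.0124). The summed signal of all 8 neural markers with a probe set ran from 1073 to 1269 in KIAA1718 shRNA cells and from 1020 to 1252 in Luc shRNA cells. The part of other cell types in the results for the imprinted genes was not tested.

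With the fibroblast mean as a covariate, limma called Sfmbt2 (1.25, adjusted p = 0.00249), Mest (1.03, adjusted p = 0.00272), Rian (0.81, adjusted p = 0.00971) and Igf2 (0.72, adjusted p = 0.0415) higher. Rian and Igf2 were not called without it, and Nnat, Zdbf2, Peg3, Slc38a4 and Mirg were not called with it. In that fit 1.75% of all genes were called.

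**Figure D5:**
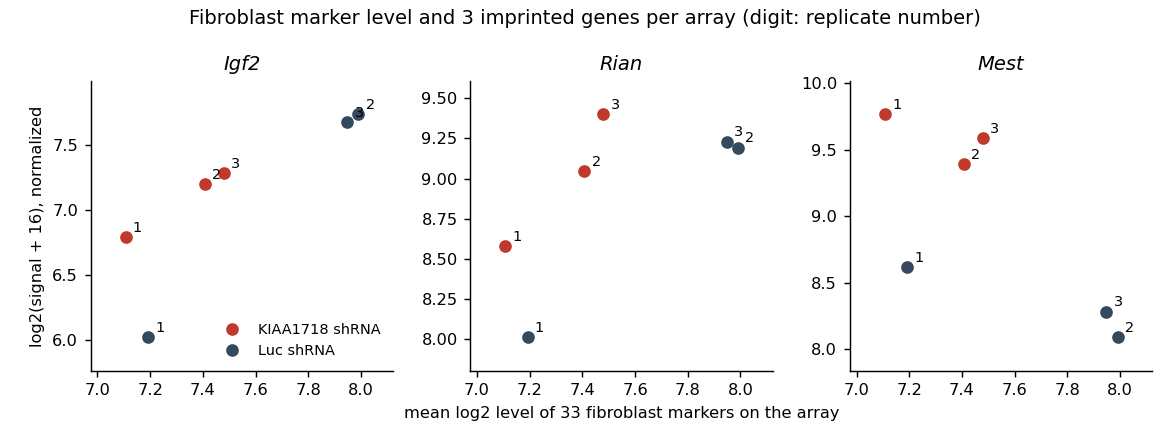
Log2 level of Igf2, Rian and Mest on each of the 6 arrays against the mean log2 level of 33 fibroblast markers on the same array, KIAA1718 shRNA and Luc shRNA arrays in separate colours. Within each group Igf2 and Rian are lowest on the array with the lowest marker mean, and the Mest values of the groups do not overlap.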

How the data were processed

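RNA abundance was measured on 6 arrays, 3 from KIAA1718 shRNA cells and 3 from Luc shRNA cells, and groups and replicate numbers came from the sample titles. The deposited table gives 1 linear signal intensity per probe set and array. The signals came from GCOS, per the submitters' processing notes. Which version and scaling it used is not given in the sources used here. The deposited intensities were not on a common scale, with array medians of 9.58 to 13.3, so log2(signal + 16) was quantile-normalized between arrays. A pseudocount of 16 understates the change of dim genes. The 64 control probe sets were left out, and so was the dimmest 40% of the rest by mean over the 6 arrays, which kept 27022 of 45037.

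The groups were compared in R 4.3.3 by limma 3.58.1, using lmFit and trended eBayes. Tests were two-sided, adjusted over all tested probe sets by Benjamini-Hochberg, with a threshold of 0.05. The fit to the mean of a gene's probe sets was adjusted over genes. The script was tested on simulated data. The annotation used here gives a single symbol for 34945 probe sets, several symbols for 932 and no symbol for 9160. The intensity table names no genome build, and the coordinates given are those of RefSeq on GRCm38.p6. Intensities carry no counting depth, and the number of arrays limits the precision.

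Both groups carry replicate numbers 1 to 3. After the group means were taken out, same-numbered arrays correlated at 0.20, 0.13 and 0.13 and arrays of different number at -0.15 to 0.02. Each of the 3 was over 0.1, so a pairing by number was used as a block in 1 alternative fit. The main fit had no block, and its values are those given unless the block is named. It called 612 genes, against 1005 with the block. The labels leave the meaning of a number unsaid, so this pairing comes from the data, and the text gives a blocked value wherever it alters the call of a named gene or the count within a list.

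The genes and lists were chosen with earlier results of these data known. Every imprinted gene listed is named. Values on every array are given for genes past the threshold, for genes with a difference of at least 0.5 and for genes that pass with the block. Of the lists of methylation and chromatin genes and of further imprinted genes, those past the threshold are named, with their values on every array. Among the marker lists, all embryonic stem cell markers and the neural marker past the threshold are named, but not those of primitive endoderm. Values on every array of the remaining genes, and Blcap, Zfp57, Trim28, Dnmt3l and the probe sets with several symbols, were chosen after their values were seen. Alternatives were no scaling, median scaling, a pseudocount of 1 or 64, no filter or a 60% filter, no intensity trend, the block, the mean of a gene's probe sets, the fibroblast covariate, Grb10 and Gnas as maternally expressed, and leaving out each array.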

Additional observations from a re-analysis of the deposited data

How the results depend on the processing

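Sfmbt2 and Mest were called under all 16 alternatives tried for single genes. Nnat and Zdbf2 were not called without replicate 3 of either group, without a filter, or with the fibroblast covariate. Peg3 lost its call under 9 alternatives, Slc38a4 under 10 and Mirg under 7, Mirg with adjusted p = 0.222 on unscaled values. Peg3 and Slc38a4 also missed the threshold with median scaling (0.46 and 0.41, adjusted p = 0.0618 and 0.0731). With the replicate block, 7 imprinted genes were higher and 1 lower (4.06% and 3.83% of all genes), Phlda2 being added.

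The 6 genes called higher became 2 without a filter and between 2 and 7 without 1 array. The 1 called lower became 0 on unscaled values, without a filter and with the covariate (1 had an unadjusted p under 0.05 by limma in each), and 0 to 1 without 1 array. Listed methylation and chromatin genes called higher were 1 without a filter, without the trend and with the covariate, and 1 to 2 without 1 array. Those called lower were 0 on unscaled values (2 at an unadjusted p under 0.05) and 2 with the mean of probe sets. Further imprinted genes called higher were 1 on unscaled values, 0 without a filter and with the covariate (3 at an unadjusted p under 0.05 in each), and 0 to 1 without 1 array. Those called lower were 1 under each of these settings, without the trend and without any 1 array. The paternal median was 0.39 on unscaled values, 0.42 with a pseudocount of 1, 0.41 with the 60% filter, 0.39 with the covariate and 0.21 to 0.40 without 1 array. The maternal median was 0.33 on unscaled values, 0.14 with a pseudocount of 64, 0.11 with the mean of probe sets and 0.12 to 0.16 without 1 array. Without scaling the median of all genes was itself 0.11.

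Signs turned for genes that did not pass. On unscaled values Meg3 was 0.10, Igf2 0.078, Tssc4 0.053, Cd81 0.014 and Airn 0.013. With the covariate Igf2 was 0.72 and passed, and Cdkn1c was -0.17. Without 1 array, Meg3 ran from -0.10 to 0.057, Rian from -0.20 to 0.41, Igf2 from -0.61 to 0.24, Kcnq1ot1 from -0.067 to 0.25, Tssc4 from -0.13 to 0.068 and Airn from -0.14 to 0.0033. Over all genes 612 were called, against 197 without a filter, 223 with the covariate, 1005 with the replicate block and 161 to 524 without 1 array. On unscaled values 293 were higher and 66 lower, and with median scaling 246 and 332, against 336 and 276. The causes were not tested.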

Other observations

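A list of 34 further imprinted genes, neighbours of the clusters above or imprinted elsewhere, had 26 tested. Of these, 2 were called higher and 2 lower, beside 2.64% and 2.17% of all genes. Their median log2 difference was -0.07 and 8 lay above 0, where 50.01% of all genes did. Calcr, the calcitonin receptor gene of the Peg10 cluster, had signals of 38.2, 36.9 and 52.1 in KIAA1718 shRNA cells, against 16.1, 16.7 and 16.9 in Luc shRNA cells. It rose by 0.72 ± 0.13 (limma adjusted p = 0.0134), a call lost under 4 of 16 alternatives, among them leaving out KIAA1718 shRNA replicate 3 (0.66, adjusted p = 0.0703) or Luc shRNA replicate 3 (0.66, adjusted p = 0.0758). Inpp5f, a phosphoinositide phosphatase gene, had signals of 126, 129.8 and 160.1 in KIAA1718 shRNA cells, against 70.4, 65.7 and 111 in Luc shRNA cells. It rose by 0.56 ± 0.12 (adjusted p = 0.0313).

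Cobl, the gene of an actin nucleator next to Grb10, had signals of 133, 75.9 and 113 in KIAA1718 shRNA cells, against 231, 218 and 275 in Luc shRNA cells. It fell by 1.22 ± 0.16 (adjusted p = 0.00273) and stayed past the threshold under all 16 alternatives. Grb10 itself did not pass. Adam23, near Zdbf2, had signals of 32.0, 35.5 and 44.3 in KIAA1718 shRNA cells, against 50.2, 61.7 and 59.6 in Luc shRNA cells. It fell by 0.57 ± 0.14 (adjusted p = 0.0464), a call lost when any 1 of the 6 arrays was left out, as was that of Inpp5f. The groups did not overlap for any of these 4 genes.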
